A study of Mus musculus with 8 samples.

Results

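Circadian clock genes were followed in 8 liver tumors and in control liver hybridised beside them. The set held 10 genes, namely the activators Arntl, Clock and Npas2, the repressors Per1, Per2 and Per3, the nuclear receptors Nr1d1 and Nr1d2, and the PAR bZIP factors Dbp and Tef. They were chosen by name, and every probe whose accession belongs to one of them was taken, which gave 11 of the 55681 probes on the array and 10 of 14311 genes tested. Each of the 8 arrays of 2 colours, all from 1 slide, held RNA of a hepatocellular carcinoma in Cy5 and of a control liver in Cy3. The tumors came from male mice lacking miR-122 (labelled miR-122 KO), a microRNA abundant in hepatocytes. The control livers came from age-matched males whose miR-122 gene was flanked by loxP sites and intact (labelled miR-122 floxed; the growth protocol calls them WT). Per the labels, C57BL/6J and 129S/Svj were mixed in the background of both groups. The labels give no age, no Cre driver, no hour of sampling and no feeding state. They also do not say whether a control animal or a tumor-bearing mouse served more than 1 array, so the p-values measure the spread between arrays. Dyes were not swapped, so a dye effect, of either sign, would recur on every array and cannot be told apart from a tumor effect.

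The circadian clock is a feedback loop of transcription with a period of about a day. ARNTL (also called BMAL1) pairs with CLOCK or with its relative NPAS2, binds E-box sequences and switches on the Per, Cry, Nr1d and PAR bZIP genes. The PER and CRY proteins then block this pair. NR1D1 and NR1D2 (REV-ERB alpha and beta) repress Arntl, Npas2 and Clock, so that in normal liver the activators peak when their targets are low. DBP and TEF bind D-box sequences and pass the rhythm to genes of metabolism, and in a rodent liver Dbp has one of the widest daily swings of any transcript. Bulk liver taken at different hours therefore differs in these genes, and in tissue mixed from cells out of step the swings are blunted.

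Sequences of the kinds that clock proteins bind were looked for in the promoters of these genes. RefSeq promoter windows of 300 bases (250 before and 50 after a transcript start, GRCm38.p6) were matched by symbol for 9 of the 10 genes, in 14 windows. They were searched on both strands for the E-box CACGTG, the D-box TTATGTAA and the element AAAGTAGGT, a form of the REV-ERB and ROR site. These 3 motifs do not overlap one another. Of all 32851 windows in the table, 7.15% held the E-box, 0.938% the D-box and 0.183% the AAAGTAGGT element. The 100-base stretches below, all before the start, show the matches found there. They are the 2 D-boxes of Per3, the E-boxes of Per1 and of both Tef promoters, and the element at the edge of the second Arntl start. Capitals mark the motif, and each line runs 5′ to 3′ on the strand named.
Arntl (chr7:113207411-113207510, plus strand): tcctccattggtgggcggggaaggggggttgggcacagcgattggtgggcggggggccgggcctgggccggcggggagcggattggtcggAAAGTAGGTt
Per1 (chr11:69098736-69098835, plus strand): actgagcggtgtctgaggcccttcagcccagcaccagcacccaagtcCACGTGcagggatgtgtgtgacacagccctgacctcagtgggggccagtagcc
Tef (chr15:81802499-81802598, plus strand): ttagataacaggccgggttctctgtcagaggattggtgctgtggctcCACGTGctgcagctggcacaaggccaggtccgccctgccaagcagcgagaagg
Tef (chr15:81811229-81811328, plus strand): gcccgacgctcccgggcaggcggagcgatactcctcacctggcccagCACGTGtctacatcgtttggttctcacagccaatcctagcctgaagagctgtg
Per3 (chr4:151044794-151044893, minus strand): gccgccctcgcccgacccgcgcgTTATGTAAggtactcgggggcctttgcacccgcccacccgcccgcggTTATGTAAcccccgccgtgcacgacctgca
The motifs lie 10 bases before the start in Arntl, 166 in Per1, 127 and 138 in the Tef promoters, and 205 and 158 in Per3. The second Arntl window held another copy of its element after the start. None of the 3 motifs stood in the windows of Clock, Dbp, Npas2, Nr1d1 or Nr1d2, which says only that these letters are not in those windows. Whether the matches take part in regulation was not tested.

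On the arrays, probes well above background made up 45.1% to 54.3% of the control channel and 38.5% to 51.9% of the tumor channel, with tumor 8 lowest. Both channels had liver RNA: the mean level of 10 hepatocyte markers was 16.39 to 16.65 in control and 15.20 to 15.90 in tumor on the log2 scale. Array 8 stood apart. Over the 12 tested genes of a list of 25 skeletal muscle markers, its control channel had a mean level of 11.54 against 7.56 to 7.65 on the others, and its tumor channel 8.77 against 7.29 to 7.56. Muscle also runs a clock, and results that rest on array 8 are given with and without it; the part of muscle RNA in them was not tested. Fewer cells of a type and less RNA per cell cannot be told apart in these bulk samples.

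A gene was called where limma gave an adjusted p (Benjamini-Hochberg) under 0.05 and the tumor differed from control by 2-fold or more. Of the 10 clock genes, 0 were called higher and 0 lower, against 15.5% of all genes tested (9.54% higher and 5.94% lower). At an unadjusted p under 0.05 the count was 2, Clock and Nr1d1, against 59.5% of all genes. The median log2 ratio of tumor over control was 0 for the set and 0.03 for all genes. The arrays were widely scattered: single log2 ratios ran from -1.65 for Dbp on array 6 to 3.57 for Per1 on array 8.

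**Figure D1:**
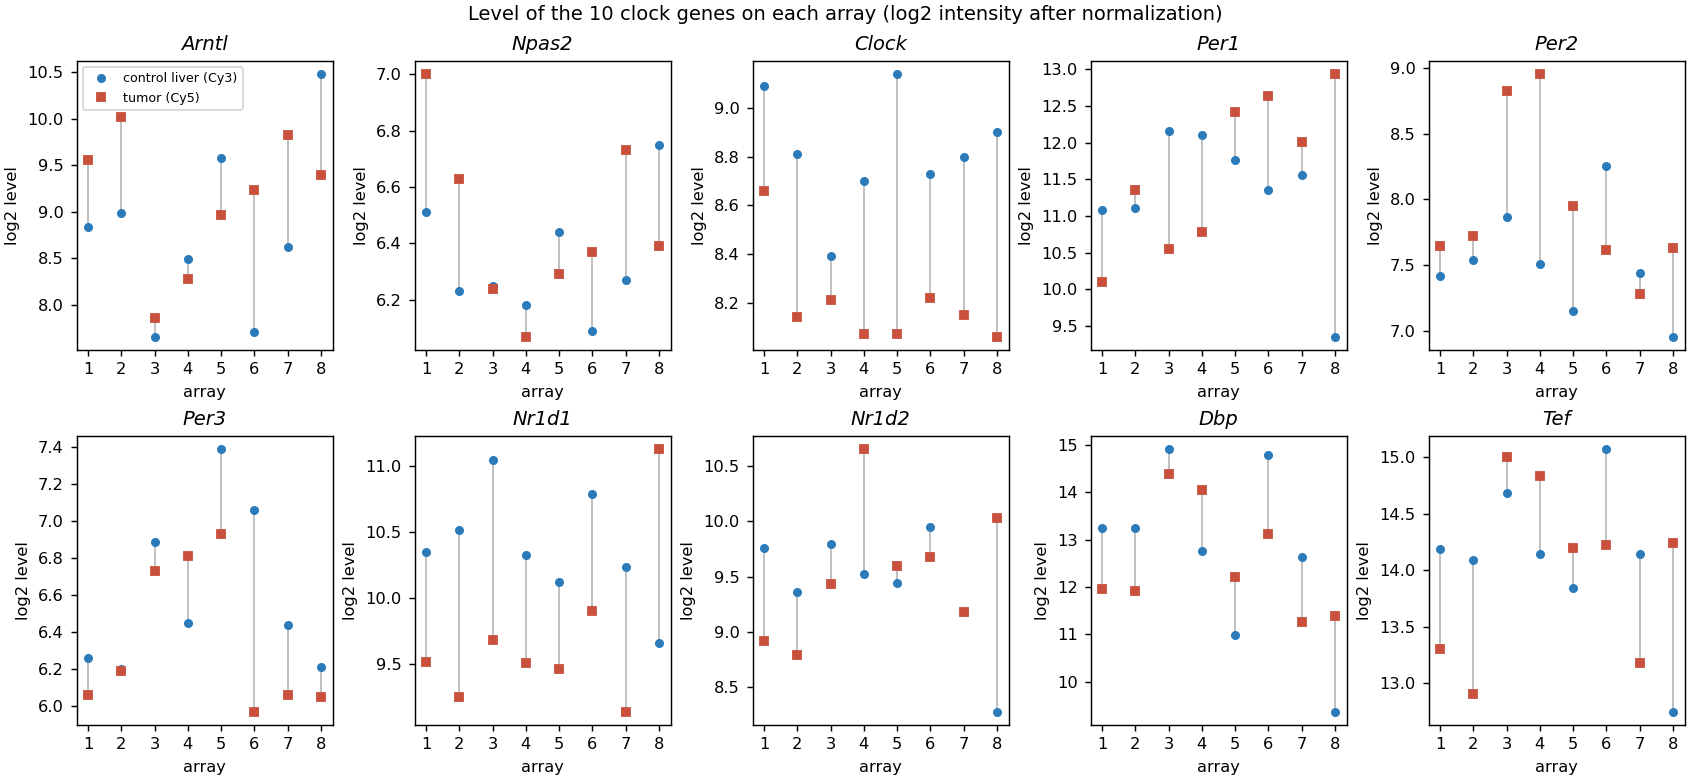
Log2 level (intensity after normalization, vertical axis) of the 10 clock genes on arrays 1 to 8 (horizontal axis), with control liver as blue circles, tumor as red squares and a grey line joining the channels of an array. Clock was lower in tumor on every array, while Dbp ran from 9.37 to 14.91 in control and from 11.26 to 14.38 in tumor.

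Among the activators, Clock, the constant partner of ARNTL, had the steadiest difference. Its control level was lowest on array 3 at 8.39, with a median of 8.80 and a highest value of 9.14 on array 5. In tumor it ran from 8.06 to 8.66 with a median of 8.14, and the ranges of the channels overlapped through tumor 1. Clock was below control on 8 of 8 arrays, and 33.8% of genes had all 8 tumors on 1 side. It had a log2 ratio of -0.62 ± 0.27 (SD, n = 8), which is 1.54-fold (limma, adjusted p = 0.000797). This passed the p-value threshold and not the 2-fold size. It was the 1 member with an adjusted p under 0.05 at any size, where 53.8% of all genes reached that (28.7% higher and 25.1% lower).

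Arntl moved widely in both channels. In control it was lowest on array 3 (7.66) and array 6 (7.71) and highest on array 8 (10.48), with a median of 8.73. In tumor it was lowest in tumors 3 and 4 (7.86 and 8.28) and highest in tumor 2 (10.02), with a median of 9.32. The log2 ratio was 0.35 ± 0.93, above 0 on 5 arrays and below on 3 (limma, adjusted p = 0.324). Array 6, with one of the lowest controls, had the highest ratio (1.53), and array 8, with the highest control, the lowest (-1.07). Leaving out array 8 gave a mean ratio of 0.55 (limma, adjusted p = 0.0925). Npas2, which can take the place of Clock, was well above background in 2 controls and 4 tumors, so its values lie near the floor. It ran from 6.09 to 6.75 in control and from 6.07 to 7.00 in tumor, at a ratio of 0.12 ± 0.32 (limma, adjusted p = 0.398).

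Of the repressors, Per1 varied most. Its control level was 11.08 to 12.16 on arrays 1 to 7 and 9.36 on array 8. In tumor it was 10.10 to 11.36 on arrays 1 to 4, which form the first row of the slide, and 12.01 to 12.93 on arrays 5 to 8 of the second row. The rows did not overlap in tumor, as for 3.27% of genes, and they overlapped in control, where 3.08% of genes had rows apart. The log2 ratio accordingly ran from -1.61 to 0.25 in the first row (mean -0.91 ± 0.82, n = 4) and from 0.44 to 3.57 in the second (1.49 ± 1.43, n = 4), as for 4.65% of genes. Row and tumor cannot be told apart here, since each tumor lay in 1 row. Over all arrays the ratio was 0.29 ± 1.68 (limma, adjusted p = 0.654), and without array 8 it was -0.18 (adjusted p = 0.682). Per1 is also a direct target of the glucocorticoid receptor. A list of 11 tested glucocorticoid-responsive and stress genes had a mean level of 13.21 in tumor 8, where Per1 was highest, against 11.13 to 12.27 in the other tumors. In control the list was lowest on array 8, at 10.87 against 11.29 to 12.21, where Per1 was lowest too. Not every member of the list was highest in tumor 8 or lowest in the control of array 8. The part of these genes in Per1 was not tested.

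Per2 ran from 6.96 (array 8) to 8.25 (array 6) in control with a median of 7.48. Tumors 3 and 4 stood apart at 8.82 and 8.95, and the other tumors lay between 7.28 and 7.95. Its log2 ratio was 0.44 ± 0.66, above 0 on 6 arrays (limma, adjusted p = 0.101), and 0.59 without array 6 (adjusted p = 0.0277), under the 2-fold size. Per3 was well above background in 6 controls and 3 tumors. It was highest in control on arrays 5, 6 and 3 (7.39, 7.06 and 6.89, the others at 6.20 to 6.45) and in tumors 5, 4 and 3 (6.93, 6.81 and 6.73, the others at 5.97 to 6.19). The ratio was -0.26 ± 0.42, below 0 on 7 arrays (limma, adjusted p = 0.138).

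The receptor Nr1d1 was below control on 7 of 8 arrays. In control it ran from 9.66 (array 8) to 11.05 (array 3) with a median of 10.34. In tumor it ran from 9.14 to 9.90 on arrays 1 to 7, and tumor 8 stood alone at 11.13. The log2 ratio was -0.68 ± 0.90 over 8 arrays (1.61-fold; limma, adjusted p = 0.0606). On arrays 1 to 7 it lay between -1.37 and -0.65, and on array 8 at 1.46. Without array 8 it was -0.99 with an adjusted p of 8.71e-05, just short of the 2-fold size. With all 8 arrays kept, the adjusted p was 0.0211 with median centring, 0.0425 with the deposited processed signals and 0.00256 with array weights, so the side of the p-value threshold depended on array 8 and on these settings. Nr1d2 had no such shift. It ran from 8.28 (array 8) to 9.95 in control and from 8.79 to 10.65 (tumor 4) in tumor, at a ratio of 0.12 ± 0.89, above 0 on 4 arrays (limma, adjusted p = 0.721) and -0.11 without array 8.

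Dbp had the widest range of the 10 in control. Its level was 9.37 on array 8 and 10.98 on array 5, 12.64 to 13.25 on arrays 1, 2, 4 and 7, and 14.78 and 14.91 on arrays 6 and 3, a span of 46.5-fold, or 15.2-fold without array 8. In tumor it was 11.26 to 12.22 in tumors 7, 8, 2, 1 and 5, then 13.13 in tumor 6, and 14.06 and 14.38 in tumors 4 and 3, a span of 8.69-fold. The log2 ratio of -0.20 ± 1.47 was the mean of 3 arrays between 1.23 and 2.01 and 5 between -1.65 and -0.52 (limma, adjusted p = 0.721). It was -0.52 without array 8 (limma, adjusted p = 0.294). The other probe of Dbp had a ratio of -0.35 ± 1.40 over all 8 arrays. Tef ran from 12.75 (array 8) to 15.07 (array 6) in control and from 12.91 (tumor 2) to 15.00 (tumor 3) in tumor. Its ratio was -0.13 ± 0.97, above 0 on 4 arrays (limma, adjusted p = 0.739), and -0.36 without array 8 (adjusted p = 0.254).

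**Figure D2:**
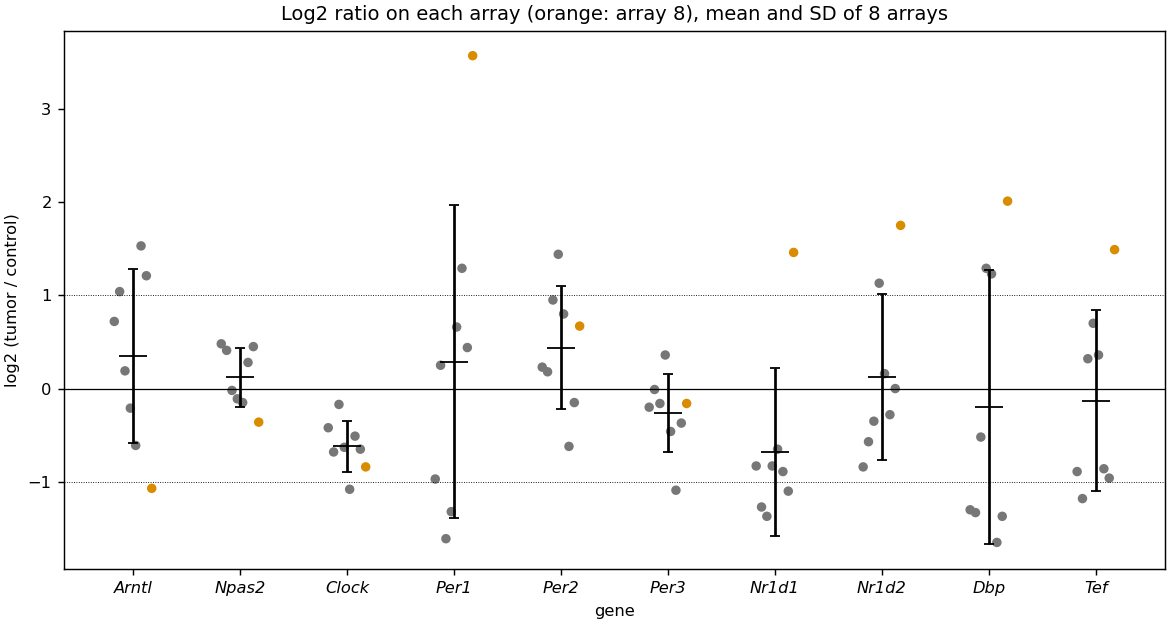
Log2 ratio of tumor over control (vertical axis) for the 10 clock genes (horizontal axis), with 1 point for each array, array 8 in orange, and the mean with its SD in black; dotted lines mark 2-fold. Clock lay below 0 on all 8 arrays, and array 8 was the highest point for Per1, Nr1d1, Nr1d2, Dbp and Tef.

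The spread over arrays was wide in both channels. The median SD of the 10 genes was 0.48 in control and 0.61 in tumor, against 0.19 and 0.34 for all genes tested. In control the SD of Dbp (1.85) exceeded that of 99.9% of genes, that of Arntl (0.93) 98.3% and that of Per1 (0.89) 98.1%. Without array 8 these SDs were 1.34, 0.69 and 0.44, above 99.6%, 97.1% and 91.4% of genes, and the median of the 10 was 0.39 against 0.18 for all genes. In tumor the SD of Dbp was 1.19 (above 97.2% of genes), that of Per1 1.05 (96.0%) and that of Clock 0.20 (16.6%). The SD was larger in control than in tumor for 4 of the 10 (Arntl, Clock, Per3 and Dbp), where 17.0% of all genes had that order. No member's SD differed between channels in an exact permutation test over all swaps of channels within arrays, two-sided (lowest p = 0.281 for Dbp, adjusted p = 0.734 over the 10), which does not show that the channels varied alike.

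Within the control channel the genes moved in 2 opposed blocks. Every activator was positively related to the other activators (3 of 3 pairs) and negatively to the 7 other genes (21 of 21 pairs, median Pearson r = -0.74), and those 7 were positively related among themselves (21 of 21, median r = 0.78). Npas2 was near background in most controls, and 9 of the 24 pairs with an activator were its own. Of the 45 pairs, 18 passed an exact permutation test over 8 arrays (two-sided, Benjamini-Hochberg adjusted over the 45), 8 of them between an activator and another gene. Npas2 was in 4 of the 18, and 14 were without it. As a background, 6.05% of the other genes tested were related to Dbp in control at an unadjusted exact p under 0.05, and 6 of the 9 other members were. Arrays 3 and 6 had high Dbp, Tef and Per2 with low Arntl in control, arrays 8 and 5 the reverse, and arrays 1, 2, 4 and 7 lay between. Per3 was highest on array 5 and did not follow this order, nor did Per1, which was higher on array 5 (11.76) than on array 6 (11.35).

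Arntl and Dbp gave r = -0.96 in control by the exact permutation test (p = 0.00104, adjusted p = 0.0103; Spearman's rho = -0.79, p = 0.0279). Without the 2 arrays farthest from the median of Arntl (3 and 8), r was -0.88, and within the rows of the slide it was -0.83 and -1. Arntl and Tef gave r = -0.96 (exact p = 0.000744, adjusted p = 0.0103; rho = -0.88, p = 0.00724) and -0.91 without those arrays. Nr1d1 and Dbp, both switched on by the activators, had the same order on all 8 arrays (r = 0.96, exact p = 2.48e-05, adjusted p = 0.00112; rho = 1, p = 4.96e-05, the smallest that 8 arrays can give for a rank order). Without arrays 3 and 8 their r was 0.94. Dbp and Tef gave r = 0.95 (exact p = 0.000942, adjusted p = 0.0103; rho = 0.81, p = 0.0218) and 0.91 without arrays 5 and 8. By rho adjusted over the 45 pairs, only Nr1d1 with Dbp passed (adjusted p = 0.00223). That adjusted p was 0.0897 for Arntl with Dbp, 0.0652 for Arntl with Tef and 0.0897 for Dbp with Tef. Per3 was loosely related to the rest: its r with the other 9 genes ran from -0.30 to 0.50. Without array 8 the signs stayed for 20 of 21 pairs of an activator with another gene and for the 3 activator pairs, and 17 of 21 pairs among the other 7 were positive, with a median r of 0.41 in place of 0.78. The place of Per1 among them rested on that array: without it, r of Per1 was 0 with Per2, -0.01 with Nr1d2, -0.01 with Dbp and 0.03 with Tef. Without array 8, 1 pair of 45 passed the test, against 18.

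**Figure D3:**
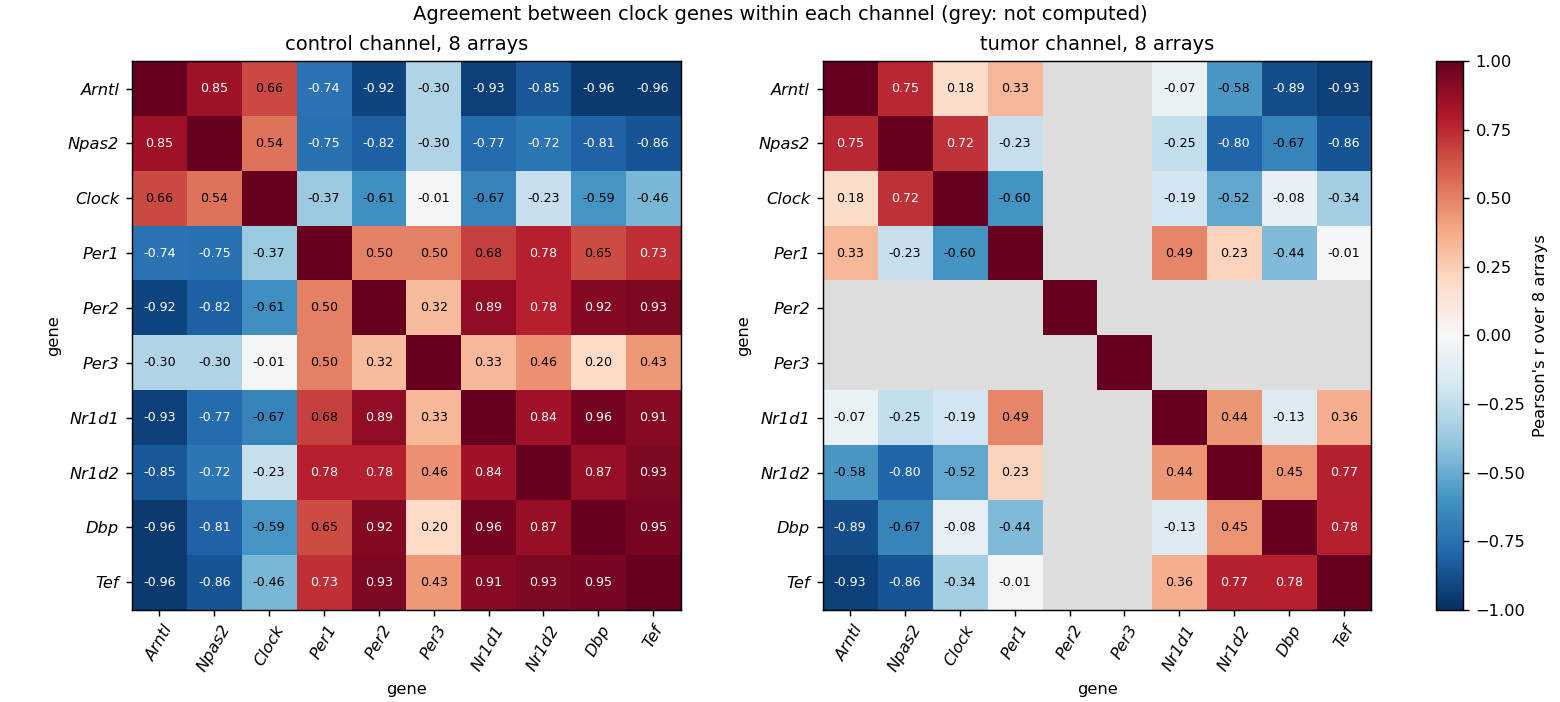
Pearson's r over 8 arrays for each pair of clock genes (both axes list the genes) in the control channel (left) and the tumor channel (right), from blue (-1) through white to red (1), with grey cells for tumor pairs of Per2 and Per3, whose values fell into separate clusters. In control over all 8 arrays the 3 activators form 1 block and the 7 other genes another, with r between -0.96 and -0.01 across the blocks. The place of Per1 rested on array 8: without it, r was 0 with Per2, -0.01 with Nr1d2, -0.01 with Dbp and 0.03 with Tef.

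In the tumors the signs were mostly the same, and fewer pairs passed the test (1 of 28, against 18 of 45 in control). These counts cover different sets of pairs. Since tumors 3 and 4, and tumors 3 to 5, formed clusters of their own for Per2 and Per3, no r is given for those genes. That left 28 pairs, while the p-values were adjusted over all 45. The 3 activator pairs were positive, 14 of 15 pairs of an activator with another gene were negative (median r = -0.52), and 7 of 10 pairs among the others were positive (median r = 0.40). By the same exact test 1 pair passed, Arntl with Tef (r = -0.93, p = 0.000471, adjusted p = 0.0212; rho = -0.90, p = 0.00456), with r = -0.90 without tumors 3 and 4. Arntl and Dbp gave r = -0.89 (exact p = 0.00471, adjusted p = 0.0638; rho = -0.86, p = 0.0107), and without tumors 3 and 4 the r was -0.49, so the relation rested on those tumors. By Spearman's rho with the same adjustment no tumor pair passed, and Arntl with Tef had an adjusted p of 0.16. With Dbp, 2 of 7 members were related at an unadjusted exact p under 0.05, against 12.6% of other genes. Nr1d1 and Dbp, in the same order in control, had r = -0.13 in tumor (exact p = 0.79, rho = 0.33), and r = 0.67 without tumor 8. Per1 had r = -0.44 with Dbp and 0.33 with Arntl. Without array 8, 13 of the 15 tumor pairs of an activator with another gene were negative (median r = -0.53) and 8 of the 10 among the others positive (median r = 0.50), where all control pairs without array 8 gave medians of -0.61 and 0.41. Without that array 1 pair passed the test in each channel. The difference between the channels in these relations was not tested.

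**Figure D4:**
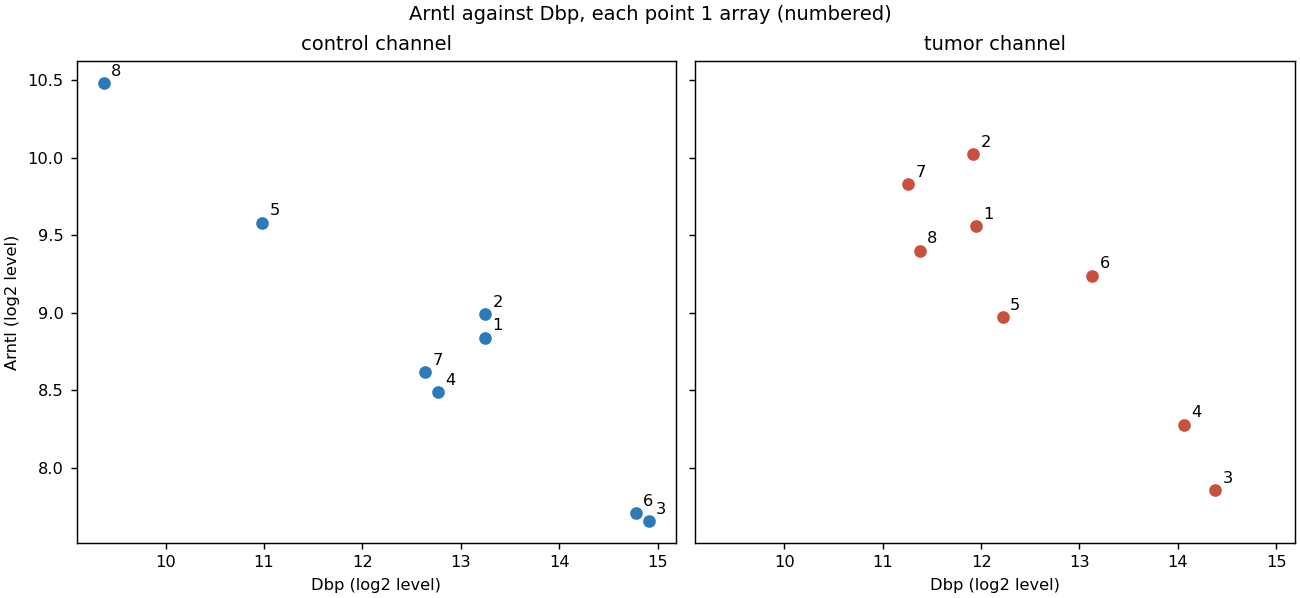
Log2 level of Arntl (vertical axis) against that of Dbp (horizontal axis) in control liver (left) and tumor (right), with 1 numbered point for each array. In control the points run from array 8 (Dbp 9.37, Arntl 10.48) to array 3 (14.91, 7.66), and in tumor tumors 3 and 4 hold the low Arntl end.

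Tumor and control levels of the same array were then compared gene by gene. For 0 of the 10 genes were they related over 8 arrays by the exact permutation test at an adjusted p under 0.05, and for 0 at an unadjusted p under 0.05, where 12% of all genes were. The 10 include Per2 and Per3, whose tumor values fell into clusters and for which no r between channels is given. Dbp came nearest, with r = 0.60 (exact p = 0.113, adjusted p = 0.634; rho = 0.60, p = 0.132). Array 3 had high Dbp and low Arntl in both channels. On array 8 the channels were far apart: the mean absolute log2 ratio over the 10 genes was 1.34, against 0.57 to 0.90 on the others. Without array 8, r was 0.62 for Nr1d1 in place of -0.47. With so few arrays, weaker relations were not detectable.

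The controls were also set against each other over these genes. The mean absolute difference over the 10 members between any pair of controls ran from 0.15 to 1.86 with a median of 0.685. The controls of arrays 4 and 7 (0.15) and of arrays 1 and 2 (0.16) were closest, and those of arrays 3 and 8 farthest. Over all genes the same measure was lowest for arrays 1 and 2 (0.18, against a median of 0.30) and was 0.22 for arrays 4 and 7, so in both these pairs the clock genes differed no more than genes in general. A list of 17 genes induced by fasting had a mean control level of 13.15 to 13.81 on arrays 1, 2 and 8 and of 11.65 to 12.26 on the others. Its members with the largest SD in control (Cyp4a14, Cyp4a10, Acot1 and Fgf21) were high on all 3 of those arrays. Not all members were: Pck1 (14.19) and Angptl4 (14.30) had their lowest control values on array 8, and Igfbp1 (12.60) its second lowest. On those same arrays Dbp in control was 13.25, 13.25 and 9.37, so the fasting genes and Dbp did not rank the controls alike. In tumor the fasting list ran from 10.88 in tumor 3 to 13.09 in tumor 8. A list of 14 genes of the fed state ran from 10.49 to 12.23 in control, lowest on arrays 1 and 2 and highest on array 8. The part of feeding in the clock gene levels was not tested.

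Other genes of the clock were read from a list of 25, of which 23 were tested; Cry1 and Rorb had a probe that did not pass the filter on dim probes. Of the 23, 3 were called higher and 0 lower, where 9.54% and 5.94% of all genes were. Their median log2 ratio was 0.16. The 3 were Csnk1e (1.57 ± 0.33, adjusted p = 8.08e-06), a kinase that marks PER proteins for breakdown, Timeless (1.39 ± 0.29, adjusted p = 9.80e-06), which also works at replication forks, and the kinase Gsk3b (1.06 ± 0.32, adjusted p = 6.59e-05). All 3 passed by limma and were above 0 on 8 of 8 arrays, where 33.8% of genes had all 8 tumors on 1 side. The share of all genes whose ranges lie apart between channels was not computed, so the ranges below are given without a count. Csnk1e was at 8.37 to 9.15 in control and 10.01 to 10.88 in tumor, Timeless at 8.12 to 8.34 and 9.20 to 10.21, and Gsk3b at 11.17 to 11.44 and 11.88 to 12.77. Hlf, the third PAR bZIP factor, was below control on 8 arrays at -0.83 ± 0.76 and short of the 2-fold size (adjusted p = 0.0148). Cry2, a partner of the PER proteins, had a ratio of 0.51 ± 1.02, with tumor 8 at 13.75 and the other tumors at 10.87 to 12.16. The widest spreads of ratio in this list were those of Noct (-0.16 ± 2.60) and Usp2 (0.16 ± 1.57), both rhythmic enzymes, neither of which passed the test.

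**Figure D5:**
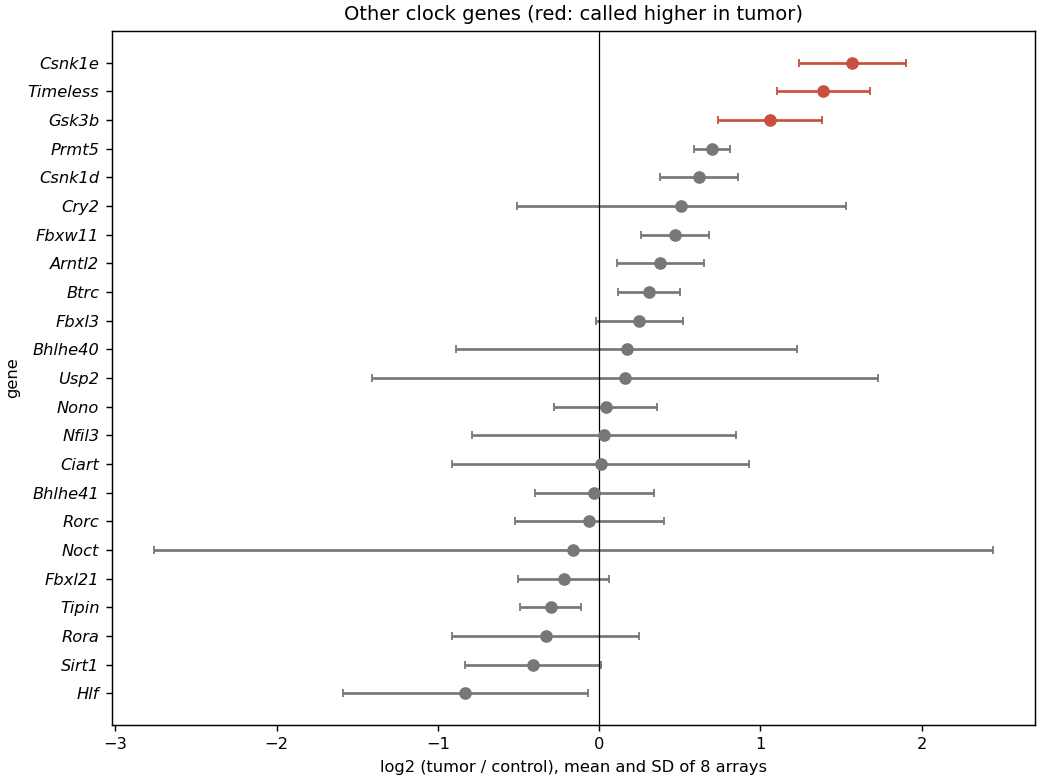
Mean log2 ratio of tumor over control with its SD over 8 arrays (horizontal axis) for 23 other clock genes (vertical axis), with those called higher in red. Csnk1e, Timeless and Gsk3b lie above 1, and Noct and Usp2 have the longest bars.

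Among 28 genes known to cycle in liver, the tumors had 4 called higher and 5 called lower, beside the same 9.54% and 5.94% of all genes. The median of the list was -0.06. Those higher were Cdkn1a, a cell cycle inhibitor (1.61 ± 1.27), the cold-inducible RNA-binding protein Rbm3 (1.45 ± 0.74), the kinase Wee1, an E-box target (1.30 ± 0.75), and the tubulin Tubb2a (1.19 ± 0.65). Those lower were led by the fatty acid elongase Elovl3 (-3.66 ± 0.26), the bile acid enzyme Hsd3b7 (-2.29 ± 0.31), Elovl5 (-1.52 ± 1.41) and the glycogen synthase Gys2 (-1.38 ± 0.68), with adjusted p from 2.54e-08 to 0.0139 by limma over these 8 genes.

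Genes whose levels most resembled Dbp were sought over 8 arrays among those with an SD of at least 0.5 and a signal well above background on every array of the channel. In control, among 989 such genes outside the set, Tmem25 (r = 0.934), Mpeg1 (0.923), Asns (0.910) and Gvin1 (0.90) were highest, and Zfp984 (-0.937), Zfp979 (-0.924), Me1 (-0.907) and Mme (-0.904) lowest. In tumor, among 2931 genes, Dnm1 (0.960), Metrn (0.949), Ltbp4 (0.948) and Adam11 (0.936) were highest, and Asns (-0.980), Igfbp1 (-0.951), Tmem97 (-0.935) and Frat1 (-0.932) lowest. Without array 8, r in control ran from 0.81 (Gvin1) to 0.90 (Tmem25 and Asns), and from -0.87 (Zfp984) to -0.78 (Me1). In tumor it ran from 0.94 (Adam11) to 0.98 (Ltbp4), and from -0.98 (Asns) to -0.93 (Frat1). All these genes were picked as extremes, and their values carry no test. Asns, which encodes asparagine synthetase, was at opposite ends in the channels. In control it was 8.22 on array 8, where Dbp was lowest, and 13.55 on array 3, where Dbp was highest. In tumor it was 7.48 in tumor 3, where Dbp was highest, and 14.85 in tumor 7, where Dbp was lowest.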

How the data were processed

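RNA of 8 tumors and of control liver was measured on 8 arrays of 2 colours. Per the labels, tumors were labelled with Cy5 and controls with Cy3. The deposited scanner files give median spot and background intensity. Beside these stand processed intensity signals, per the file headers background-subtracted and dye-normalized, and a log10 ratio of red over green, which was not used. Scanning software was Agilent Feature Extraction 10.9, per the submitters' processing notes. Gene names came from accessions in RefSeq GRCm38.p6 (26582 of 55681 probes); the array design is on mm9.

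Median signals were corrected by normexp (offset 50) and normalized by loess within arrays, with control and outlier spots at weight 0 (R 4.3.3, limma 3.58.1). Channel levels were taken after Aquantile normalization, on the log2 scale. A probe entered the fit where 4 or more arrays had it well above background in either channel, and the brightest tested probe stood for its gene. Log2 ratios were tested against 0 with limma (lmFit, eBayes), adjusted over all genes, and called where adjusted p was under 0.05 and the change 2-fold or more. Levels were related over arrays by exact permutation, 100 relations in all (10 between channels and 45 pairs in each channel). A gene whose ordered values held a gap over 0.5 of their range, with at least 2 arrays on each side, was taken as clustered. No r with it was given in that channel, but it stayed among the 10 genes tested between channels. The procedure was tested on simulated data. Members and lists were chosen with earlier results of these data known. Named are all members, up to 4 called genes of the other lists in each direction, the 4 genes of the fasting list with the largest SD in control, and the 4 genes most and least like Dbp; Hlf, Cry2, Noct, Usp2, Pck1, and Angptl4 and Igfbp1 for their control levels, were singled out after their values were seen.

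Alternatives were no background subtraction, offset 16, the processed signals, median centring, scaling or quantile normalization between arrays, 2 other filters, the mean of probes, another variance model, array weights, the slide row, Spearman's rho, each array left out, arrays 7 and 8 left out, and arrays 1 and 2 averaged. Chosen after seeing the data was averaging arrays 1 and 2 with array 8 left out. The number of arrays limits the precision.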

Additional observations from a re-analysis of the deposited data

Results flagged for a closer look

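In 5 of 30 sets of 8 values (10 genes in control, tumor and ratio), 1 array lay far from the other 7. The rule flags about 1 in 20 sets of independent values by chance. These sets are not independent, since they share arrays and each ratio is made from the control and tumor values. The share over all genes is not given, so the count is not read as an excess. In control, array 8 was low for Per1 (9.36, the others 11.08 to 12.16) and for Nr1d2 (8.28, the others 9.18 to 9.95). In tumor, array 8 was high for Nr1d1 (11.13, the others 9.14 to 9.90), and tumor 1 was high for Clock (8.66, the others 8.06 to 8.22). The log2 ratio of Nr1d1 on array 8 was 1.46, with the others between -1.37 and -0.65. The control of array 8 was also the one with muscle transcripts; their part was not tested.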

How the results depend on the processing

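The counts of clock genes called higher or lower (0 and 0) and of genes related between channels (0) were the same under every alternative run. Other clock genes called higher numbered 3, and 2 with the mean of all tested probes of a gene, so 1 of the calls depended on the choice of probe. With the processed signals 1 was called lower, Hlf, in place of 0. With those signals, 7 clock genes had a larger SD in control in place of 4, and leaving out single arrays gave 3 to 5. Pairs called in control numbered 18, 10 with the processed signals, 1 by Spearman's rho, 1 to 21 without single arrays (1 without array 8, 8 without array 6), and 0 with arrays 1 and 2 averaged and array 8 left out, over 6 values. In that last setting 18 of 21 control pairs of an activator with another gene were negative and 16 of 21 among the others positive. Pairs called in tumor numbered 1, and 0 with the processed signals, quantile normalization, Spearman's rho, arrays 1 and 2 averaged, or these averaged without array 8, 3 when centred within rows, and 0 to 2 without single arrays. Leaving out any of the other 6 arrays gave 15 to 21 pairs in control; the cause of these moves was not tested. Ratios that were not called changed sign for Per1 (-0.06 with array weights, -0.18 without array 8, -0.28 without arrays 7 and 8), Nr1d2 (-0.02 without array 4, -0.11 without array 8, -0.13 without arrays 7 and 8), Tef (0.02 without array 2, 0 with arrays 1 and 2 averaged) and Dbp (0 without array 6). Over single arrays left out they ran from -0.18 to 0.56 for Per1, -0.11 to 0.26 for Nr1d2, -0.36 to 0.02 for Tef and -0.52 to 0 for Dbp. The log2 ratio of Clock stayed between -0.74 and -0.55 (adjusted p 0.000537 to 0.0237) and that of Nr1d1 between -0.99 and -0.59 (8.71e-05 to 0.136). That of Per2 lay between 0.29 and 0.59 (0.0277 to 0.278). Npas2 and Per3 lie near background, and the ratio of Per3 was -1.02 with the processed signals. The samples form 1 group, in which each array pairs a tumor with a control. The tests of the log2 ratio and of the SD used that pairing.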

Other observations

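Elovl3, a fatty acid elongase of liver that cycles with the clock, differed from the 10 clock genes in that tumor and control kept step while the tumor lay far below. Its control level ran from 11.78 on array 3 to 14.71 on array 8 and its tumor level from 8.26 to 11.30 on the same arrays. Over the 8 arrays the levels gave r = 0.97 (exact permutation p = 2.48e-05, adjusted p = 0.0355 over all genes tested; rho = 1, p = 4.96e-05), and r = 0.94 without the 2 arrays farthest from the median in control. Within the rows of the slide r was 0.94 and 0.99. Elovl3 was 1 of 32 genes that passed this test among 14303, so nearly all genes, like the 10 clock genes, did not pass. It was singled out after its values were seen.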
